A study of Mus musculus with 4 samples.

Results

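Ttr, Kl, Cldn5 and Flt1 are 4 genes of the barriers of the brain: Ttr and Kl of the choroid plexus, the epithelium that makes cerebrospinal fluid, and Cldn5 and Flt1 of the endothelium that lines the vessels. They were taken as every feature of the deposited table whose platform gene symbol is one of these names, which gave 6 of 16281 features: 1 of Ttr, 3 of Kl, 1 of Cldn5 and 1 of Flt1. The genes were chosen with the ratios of these arrays known, so their own values are a description with no test.

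The RNA came from the hippocampal dentate gyrus of male C57BL/6J mice, described as young, and was set on 4 two-colour arrays, 1 array for each of 1, 2, 4 and 6 h. The Cy3 channel of every array held RNA after a saline injection, 5 µL per g of body weight. The Cy5 channel held RNA after an injection of MK-801, a blocker of the NMDA receptor channel, at 300 µg per g as the labels print the dose. The labels count time from the last shock treatment of MK-801 animals, call the mice of both channels controls, and do not say how many mice each channel pooled. No time was repeated and no dyes were exchanged, so that a dye effect and the treatment cannot be told apart.

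Each value below is the authors' deposited log ratio of the channels, read as log2, minus the median of its array. Neither the base of the logarithm nor the direction of the ratio is given in the sources used here: a negative value may stand for less RNA with MK-801 or for less RNA with saline. The text therefore gives signs and sizes and no treatment as higher. Exact 0, which filled 24.9% to 37.4% of an array, was taken as no value. A ratio holds no level, so the labelled tissue could not be checked by its markers, and in tissue RNA fewer cells of a type and less RNA per cell cannot be told apart.

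As a measure of spread between features of 1 gene, the 15 features of the glycolytic gene Gapdh with values on all 4 arrays had SDs of 0.09, 0.14, 0.03 and 0.06 at 1, 2, 4 and 6 h. That spread is within an array and holds no spread between mice. The means of these features were -0.26, 0.47, 0.39 and 0.35, so the SD does not gauge how unusual a distance from 0 is. The 1 h array stood apart from the rest. Over the 8777 features with values on all 4 arrays its Pearson correlation with the later arrays was -0.06 to -0.07, against 0.64 to 0.80 among the arrays of 2, 4 and 6 h (across features, which share arrays and are not replicates).

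Transthyretin, the product of Ttr, carries thyroid hormone and, with retinol-binding protein, vitamin A. In the brain it is made above all by the choroid plexus, which lies against the hippocampus, so that Ttr is often used to see whether plexus came along in a dissection. Klotho, the product of Kl, is a membrane protein that pairs with FGF receptors to bind FGF23 and is also shed into fluid. Claudin-5 closes the tight junctions between brain endothelial cells and is a main part of the blood-brain barrier, and Flt1 is a receptor for VEGF-A, VEGF-B and placental growth factor that also has a soluble form which traps these ligands.

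The promoters of Kl, Cldn5 and Flt1, the 3 of the 4 genes matched in the RefSeq table of build GRCm38.p6, are shown because these genes took different courses over the arrays. Each runs 5′ to 3′ on the strand of the gene, from 250 bases before to 50 after an annotated start. Capitals mark 4 motifs searched on both strands: TATAAA (the TATA box), TGACGTCA (the cAMP response element), CCAAT (the CCAAT box, ATTGG on the other strand) and GGGCGG (the GC box, CCGCCC on the other strand).
Kl, chr5:150952357-150952656, plus strand: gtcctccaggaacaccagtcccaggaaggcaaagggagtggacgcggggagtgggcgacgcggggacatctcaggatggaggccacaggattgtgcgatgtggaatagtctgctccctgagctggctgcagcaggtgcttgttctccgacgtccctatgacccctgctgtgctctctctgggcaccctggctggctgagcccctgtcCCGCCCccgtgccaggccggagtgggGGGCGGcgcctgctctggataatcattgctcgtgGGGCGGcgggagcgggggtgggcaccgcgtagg
Cldn5, chr16:18776597-18776896, plus strand: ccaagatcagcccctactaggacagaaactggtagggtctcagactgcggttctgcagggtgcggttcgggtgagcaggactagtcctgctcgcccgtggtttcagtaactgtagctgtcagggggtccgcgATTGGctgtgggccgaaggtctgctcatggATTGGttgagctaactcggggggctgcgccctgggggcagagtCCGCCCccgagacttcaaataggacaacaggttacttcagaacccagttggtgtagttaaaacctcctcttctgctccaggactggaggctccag
Flt1, chr5:147725962-147726261, minus strand: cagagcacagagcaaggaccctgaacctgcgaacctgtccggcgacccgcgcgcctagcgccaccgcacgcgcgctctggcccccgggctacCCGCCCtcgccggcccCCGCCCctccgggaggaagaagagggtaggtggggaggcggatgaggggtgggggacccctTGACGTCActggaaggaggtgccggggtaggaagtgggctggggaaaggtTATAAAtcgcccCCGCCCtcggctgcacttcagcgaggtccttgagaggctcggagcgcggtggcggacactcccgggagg

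The Flt1 window held 1 TATA box, 1 cAMP response element and 3 GC boxes, the Cldn5 window 2 CCAAT boxes and 1 GC box, and the Kl window 3 GC boxes alone. No motif matches overlapped in these windows. Of all 32851 promoters of the table, 13.6% held TATAAA, 1.79% held TGACGTCA, 37.4% held CCAAT and 35.7% held GGGCGG. These are matches of letters, and no array value tests them.

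The Ttr feature was negative on all 4 arrays, at -0.20, -0.90, -0.60 and -0.70 at 1, 2, 4 and 6 h. It was thus low from 2 h on and close to the bulk of the array at 1 h. At 1 h 25.4% of all features lay below it, against 1.09%, 4.01% and 2.37% at 2, 4 and 6 h. The mean of the 3 later arrays was -0.73 ± 0.15 (SD over times, which are not replicates), or -0.53 from its value at 1 h. A lower step was found in 7.83% of the 8777 features with values on all 4 arrays. Being negative on all 4 arrays was not rare, since 14.2% of the 8777 features were.

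The 3 Kl features gave 3 different courses. Feature 13730 read 0.20 at 1 h and then -2.64, -3.03 and -3.18 at 2, 4 and 6 h. Feature 2148, which the platform annotation assigns to the same RefSeq transcript, read -0.24, -0.20, -0.11 and -0.09. Feature 2114, assigned to a GenBank record of the same gene, read 0.05 at 1 h and -0.55 at 2 h and had no value at 4 and 6 h. The features lay close together at 1 h, where they spanned 0.44, and far apart later, with spans of 2.44, 2.92 and 3.10 at 2, 4 and 6 h. Among the genes with several features, 38.6% spanned at least as much as Kl at 1 h, but 0.922%, 1.94% and 0.944% did so at 2, 4 and 6 h (14 of 1519, 24 of 1236 and 12 of 1271 genes). The median span was 0.33, 0.21, 0.21 and 0.17. Kl was negative with every feature at 2 h, and the size of its ratio at 2, 4 and 6 h depends on which feature is read.

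**Figure D1:**
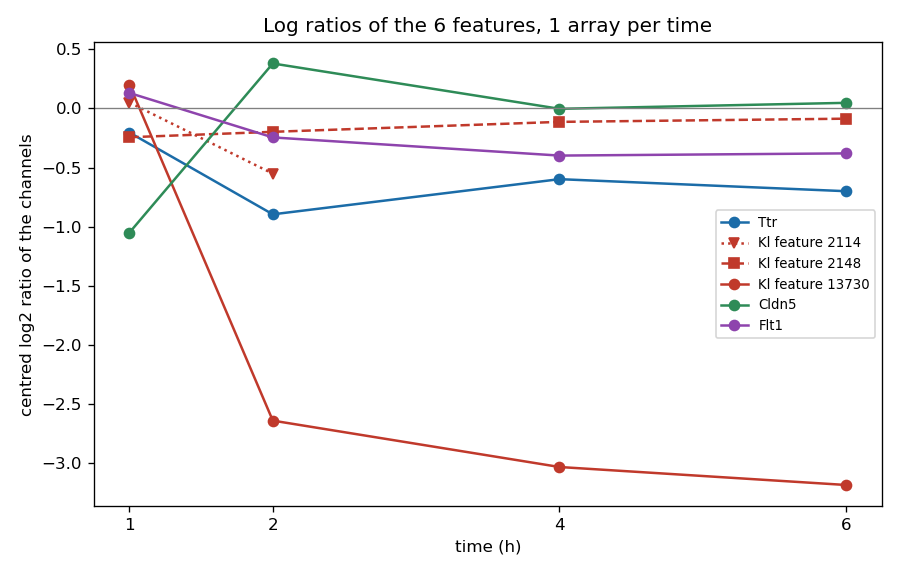
Centred log2 ratio of the channels (vertical axis) against time in h (horizontal axis) for the 6 features, each point 1 array and lines joining the points of a feature. Kl feature 13730 drops from 0.20 at 1 h to -3.18 at 6 h, Cldn5 moves from -1.05 to near 0, and Ttr and Flt1 stay below 0 from 2 h on.

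**Figure D2:**
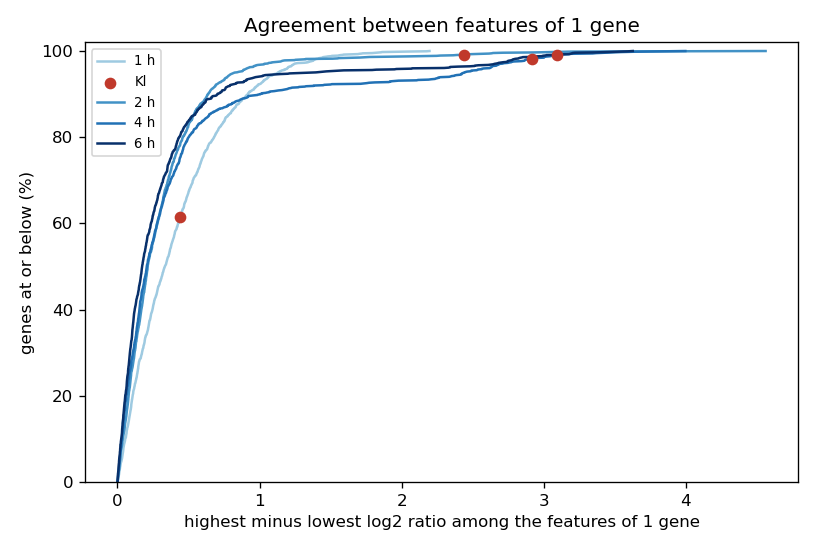
Share of genes with several features (vertical axis, %) whose highest and lowest log2 ratios differ by at most the amount on the horizontal axis, with a curve for each time and Kl as red points. The Kl point at 1 h lies at 0.44 within the body of its curve, and those at 2, 4 and 6 h lie at 2.44 to 3.10 in the upper tail.

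Cldn5 stood out at 1 h alone, and in the negative direction. Its feature read -1.05, 0.38, 0.00 and 0.05 at 1, 2, 4 and 6 h. At 1 h 0.33% of all features lay below it, and at 2 h 6.49% lay above it. At 4 and 6 h it sat in the middle of the arrays, with 49.4% and 58.9% of features below it, and its sign at 4 h rests on the centring (0.013 as deposited and -0.0034 centred). The mean of the 3 later arrays exceeded the 1 h value by 1.19, and 0.41% of 8777 features had a larger positive step.

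Flt1 took the other course among these endothelial genes. It read 0.13, -0.25, -0.40 and -0.38 at the 4 times. Cldn5 minus Flt1 was -1.18 at 1 h and 0.63, 0.40 and 0.43 at 2, 4 and 6 h, so the order of the pair turned between 1 and 2 h. Flt1 lay in the lower part of the later arrays, with 14.3%, 7.59% and 6.77% of features below it, and its values at 4 and 6 h differed by less than the Gapdh spread. Below 0 on all 3 later arrays were 4 of the 5 features with values there (those of Ttr and Flt1 and 2 of Kl), beside 29% of all features. A positive ratio at 1 h with negative ratios at 2, 4 and 6 h was found in 15% of all features.

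**Figure D3:**
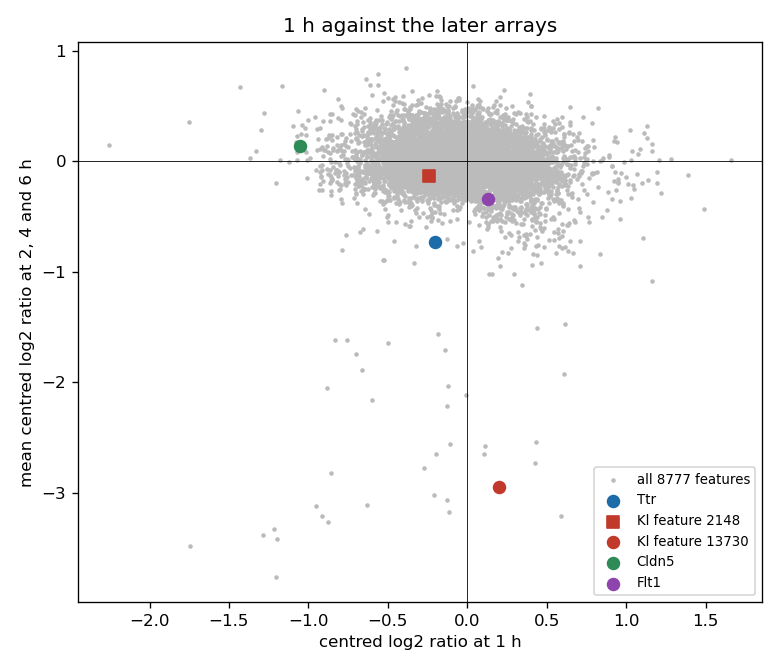
Mean centred log2 ratio at 2, 4 and 6 h (vertical axis) against the ratio at 1 h (horizontal axis) for the 8777 features with values on all 4 arrays (grey), with the 5 such features of Ttr, Kl, Cldn5 and Flt1 coloured. Kl feature 13730 lies at -2.95 in a sparse cloud far below the main body, while Cldn5 lies at its left edge at -1.05 and Flt1 inside it.

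Counted against a threshold of 1 on the log2 scale, 1 of 6 features lay below -1 at 1 h (Cldn5), where 0.412% of all features did. At 2, 4 and 6 h the feature below -1 was Kl 13730, 1 of 6, 1 of 5 and 1 of 5 with a value, beside 0.957%, 2% and 1.44% of all features. None lay above 1, beside 1.71%, 0%, 0.108% and 0.114% of all features. The genes were picked on these arrays, so nothing is read from these shares. Read as natural logarithms, Ttr became -1.29 at 2 h and -1.01 at 6 h and would also lie below -1. With the arrays brought to equal spread Cldn5 at 1 h became -0.81 and no longer passed, and the Ttr values became -0.16, -0.96, -0.65 and -0.83.

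By the ratios at the 4 times, the feature most like Ttr was that of Dck, a nucleoside kinase, with a root mean square difference of 0.092 over the 4 arrays among 7683 candidates. It was followed by Mbd6 (0.10) and Psen2, a presenilin (0.15). The features of Dck and Psen2, 15722 and 15758, lay between 15630 and 15871, a stretch of feature numbers with many low ratios that is described below. Those most like Cldn5 were Rnf25, a ubiquitin ligase (0.098), Klhl24 (0.12) and Rhoh, a GTPase of blood cells (0.13). Near Flt1 were Gadd45g, a stress-response gene (0.041), Daw1 (0.042) and the chemokine gene Ccl21b (0.043), and near Kl feature 2148 were Rfk, riboflavin kinase (0.016), Gnpda1 (0.025) and Mfsd14a (0.028). None of these genes is in the lists of plexus or vessel genes used here. A second feature of Gadd45g read -0.18, -0.11, -0.08 and -0.05, apart from the first and from Flt1.

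Kl feature 13730 had no close match. Its nearest features were those of Slc1a6, a glutamate transporter (0.24), Btc, a growth factor of the EGF family (0.25), and Atp4a, the gastric proton pump (0.27), all of which also read between -2.37 and -3.29 at 2, 4 and 6 h. It belonged to a small group: of 9353 features with values at 2, 4 and 6 h, 55 (0.588%) lay below -1 and 36 below -2 on all 3 arrays. The 36 included features of Lalba, a milk protein, and of Clca1, Timp1, Hes1, Akt2 and Atf2 (named after their values were seen). At 1 h the 23 of them with a value ran from -1.75 to 0.59, with a median of -0.21.

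Other features of the same genes read higher at 2, 4 and 6 h where they had a value. Nearly any feature would, since the group was chosen for its low values there. Of the 36 features, 4 had no gene name, and 23, counting Kl, had other features of the same gene on the array, 28 in all. Of those 28, 20 had a value at 2, 4 or 6 h, and their 50 values ran from -0.83 to 0.41 with a median of -0.06. None of the 50 was below -1, beside 0.957%, 2% and 1.44% of all features at 2, 4 and 6 h, so nothing is read from that count. The lowest were those of a second Slc6a2 feature, at -0.77 and -0.83 at 2 and 6 h. A second Btc feature read -0.06, 0.01 and 0.17 at 2, 4 and 6 h, and a second Slc1a6 feature -0.08, -0.11 and -0.11, as flat as Kl feature 2148. By feature number, 19 of the 36 lay between 15630 and 15871, a stretch drawn around these features after their values were seen. There 13.6% of the 140 features with values at 2, 4 and 6 h were in the group, beside 0.385% of all 9353. Also in that stretch, though not in the group, were the features of Dck, Psen2 and Tjp1 (15722, 15758 and 15759). Kl feature 13730 was outside that stretch, and the 5 features on each side of it read between -0.76 and 0.42 on the later arrays where they had a value. Whether the feature itself had a part in the Kl ratio was not tested.

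Neighbours in feature number were also read for the other genes, 5 on each side. Around Ttr they ran from -0.16 to 0.31 at 2 h and from -0.24 to 0.29 at 6 h, all above Ttr itself. Around Cldn5 at 1 h they ran from -0.88 to 1.20, and the next feature, of Zfp346, read -0.88 at 1 h beside -1.05 for Cldn5. Around Flt1 they ran from -0.23 to 0.62 at 2 h, -0.52 to 0.51 at 4 h and -0.21 to 0.85 at 6 h. Their medians were 0.21, 0.16 and 0.17, opposite to Flt1 in sign, over the 6, 5 and 5 of 10 neighbours with a value. The next feature, of Socs3, was the only neighbour numbered above Flt1 with a value. It read 0.21, -0.23, -0.41 and -0.21, within 0.17 of Flt1 at every time. Over the arrays, features with successive numbers correlated at 0.18, 0.30, 0.29 and 0.30 at 1, 2, 4 and 6 h (Pearson, 6886 to 9784 pairs of features that share an array). Whether place on the array had a part in these ratios was not tested.

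The other genes of the choroid plexus were read from a list of 38 genes, of which 23 besides Ttr and Kl were on the array with 30 features. Their medians were -0.03, -0.08, -0.04 and -0.04 at 1, 2, 4 and 6 h, against 0 for all features by construction. Below 0 were 13 of 23, 16 of 24, 11 of 20 and 11 of 22 features, and none lay past 1 in either direction. The lowest values of the rest of the list were -0.87, -0.51, -0.46 and -0.71, so that Ttr lay below all of them at 2 and 4 h, level with the lowest at 6 h and well inside them at 1 h. Among features with values on all 4 arrays, the lowest over the times was Cldn2, the claudin of leaky epithelia, at 0.20, -0.51, -0.39 and -0.38. The Wnt and BMP antagonist gene Sostdc1 read -0.67, -0.20, -0.46 and 0.02. The plexus potassium channel subunit Kcne2 read -0.03, -0.26, -0.16 and -0.19, and Igf2, a growth factor of plexus and meninges, -0.21, 0.04, 0.01 and -0.14. On the same terms the highest were Cab39l, at 0.08, -0.10, 0.22 and 0.21, and Ecrg4, at -0.33, -0.08, 0.24 and 0.29. Of the features with 3 values, Col8a1 read -0.50, -0.17 and -0.71 and 1 of Slc4a2 read 0.33, 0.47 and 0.17 at 2, 4 and 6 h. The water channel gene Aqp1, another defining gene, had no value on any array, and Folr1, the folate receptor of the plexus, had 0.22 at 2 h and -0.13 at 6 h.

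**Figure D4:**
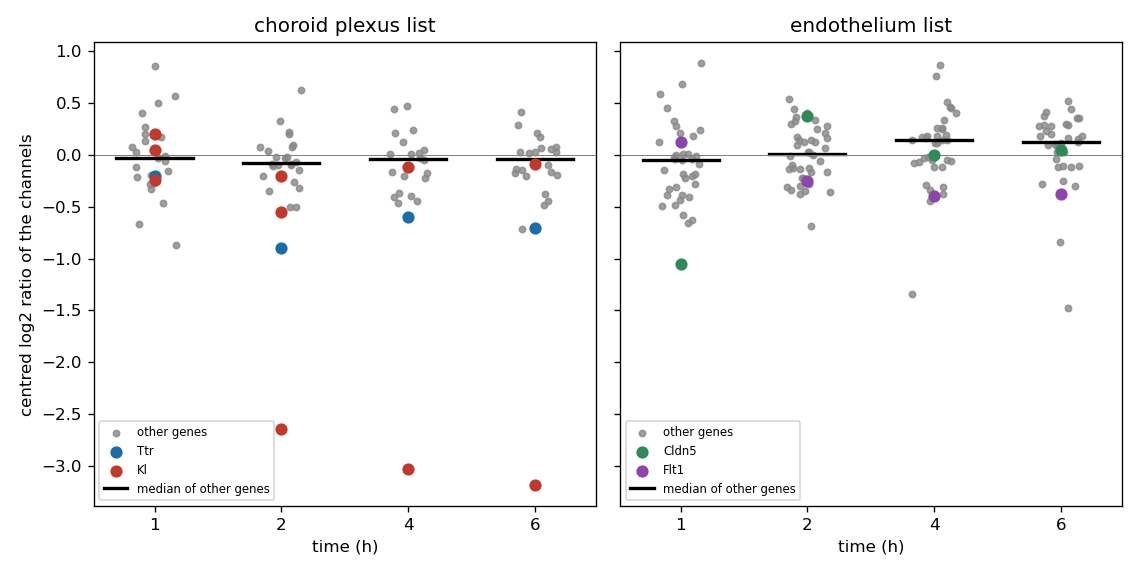
Centred log2 ratios (vertical axis) by time in h (horizontal axis) of the features of the choroid plexus list (left) and the endothelium list (right), with Ttr, Kl, Cldn5 and Flt1 coloured, other genes grey and a bar at the median of the other genes. Ttr and Kl feature 13730 lie below most plexus features at 2, 4 and 6 h, and Cldn5 lies below every other endothelial feature at 1 h, where the lowest of those is at -0.66.

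Endothelial genes other than Cldn5 and Flt1 were 38 of a list of 46, with 48 features. Their medians were -0.05, 0.01, 0.15 and 0.13, and 14 of 37, 21 of 40, 20 of 35 and 25 of 35 features were above 0 at 1, 2, 4 and 6 h. At 1 h Cldn5 was thus on the side of most of the list and larger than any of it, while Flt1 from 4 h on was on the other side. Past 1 were a feature of the transcription factor gene Fli1 at 4 h (-1.34, with 0.59 at 1 h, -0.84 at 6 h and no value at 2 h) and 1 of Palmd at 6 h (-1.48, with -0.68 at 2 h and no other value). Among features with values on all 4 arrays, the highest over the times were Emcn, a sialomucin of the endothelial surface, at -0.02, 0.28, 0.51 and 0.52, and Igfbp7, at -0.58, 0.25, 0.34 and 0.45. The course of Igfbp7 was like that of Cldn5 in sign at 1 and 2 h but stayed positive. Lowest among features with values on all 4 arrays were Plvap, the diaphragm protein of leaky vessels, at -0.40, -0.37, -0.44 and -0.25, and the transcription factor gene Sox17, at -0.66, -0.34, -0.34 and -0.04. Mural genes of pericytes and smooth muscle had medians of -0.02, -0.01, 0.08 and 0.13, with 6 of 13, 8 of 17, 7 of 10 and 9 of 11 features above 0, beside 50% of all features by construction. Among them Vtn read -0.33, 0.19, 0.56 and 0.35, and the pericyte gene Rgs5 had a feature at -0.20, -0.01, 0.09 and -0.06.

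Claudins and their partners took mixed courses. Of the tight junction list, 21 genes besides Cldn5 were on the array, and their medians were 0.00, 0.02, 0.03 and 0.00. Cldn3 alone of the claudins read near Cldn5 at 1 h, at -0.87, with 0.09 at 2 h and no later value. The 2 Cldn10 features had the sign of Cldn5 at 1, 2 and 6 h at smaller size at 1 h, with -0.32, 0.16, -0.06 and 0.06 and with -0.32, 0.19, 0.14 and 0.25. Occludin, Ocln, which joins Cldn5 at the endothelial junction, read -0.04, 0.30, 0.45 and 0.20. The scaffold gene Tjp1 read 0.18, -0.20, -0.35 and -0.44, and Cldn11, the claudin of myelin, stayed within -0.08 and 0.07.

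Of the VEGF genes, the ligands Vegfa, Vegfc and Pgf read -0.41, -0.26 and -0.32 at 1 h. The receptor genes Flt1, Kdr and Flt4 were positive at that time (0.13, 0.21 and 0.16). These 3 values were smaller than the median absolute deviation over all features of the 1 h array, 0.22. At 2, 4 and 6 h Vegfa and Vegfc lay within -0.06 and 0.09. Kdr, the main signalling receptor for VEGF-A, read -0.22, -0.12 and 0.18, so it was below 0 with Flt1 at 2 and 4 h and on the other side at 6 h. The co-receptor gene Nrp1 read -0.28, -0.06, -0.11 and -0.11. The features of this list besides Flt1 had medians of -0.26, 0.07, -0.06 and 0.01, with 2 of 7, 4 of 7, 3 of 9 and 5 of 9 above 0. The 2 Vegfb features differed, one at 0.76, 0.48 and 0.97 at 2, 4 and 6 h and the other at 0.07, 0.13 and 0.02.

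Partners of klotho varied as well. Fgfr1, whose product forms the FGF23 receptor with klotho, had a feature at 0.04, -0.28, -0.26 and -0.19. Of its 2 others, 1 read 0.36, -0.22 and 0.16 at 1, 2 and 6 h, and the other -0.49 and 0.04 at 1 and 2 h. Fgfr3 had a feature at -0.32, 0.30, 0.33 and 0.51, Fgfr4 at 0.37, -0.19, -0.40 and -0.72, and the klotho relative Klb at -0.37, -0.19, 0.31 and 0.22. The features of the klotho and FGF receptor list besides Kl had medians of 0.17, -0.19, 0.11 and 0.16, and none came near Kl feature 13730. Among the genes of thyroid hormone and retinol transport, Rbp4, whose product travels with transthyretin, read -0.61, 0.35, 0.25 and -0.01, unlike Ttr in sign at 2 and 4 h. The medians of that list besides Ttr were 0.13, -0.02, -0.06 and 0.00. The deiodinase gene Dio2 read 0.59, -0.10, 0.27 and 0.19. The retinoid receptor gene Rxra was the lowest of that list besides Ttr at 4 and 6 h, at 0.49, -0.27, -0.71 and -0.65.

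Markers of other tissue that a dissection could hold were read beside these. Meningeal genes had medians of -0.23, -0.02, 0.04 and -0.10 over 9 features, and at 1 h, where Cldn5 was low, they ran from -1.07 to 0.35 with 3 of 9 above 0. Ependymal genes had -0.18, -0.10, -0.04 and 0.08 over 4 or 5 features. Blood genes had 0.23, 0.42, -0.09 and 0.24 over 4 to 7 features, the haemoglobin gene Hba-a1 read 0.24, 0.49, 0.09 and 0.21, and a feature of the red cell anion exchanger gene Slc4a1 read 0.22, -2.60 and -2.59 at 1, 4 and 6 h. A second Slc4a1 feature read 0.18 at 2 h and 0.40 at 6 h. Granule cell genes had -0.22, -0.04, -0.06 and -0.08 over 6 or 7 features. The part of these tissues in the ratios of Ttr, Kl, Cldn5 and Flt1 was not tested.

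Tests across the arrays used the features with a value on all 4, and their error was the spread over times. In limma, with Benjamini-Hochberg adjustment, 0 of 8759 features passed an adjusted p of 0.05 for the mean over the 4 times (0%), with 1294 at an unadjusted p under 0.05, and 0 passed for the slope on log2 hours (0%), with 1353. No gene of the lists passed. Without the 1 h array 562 features passed as positive (6.42%) and 487 as negative (5.56%). Of the other plexus features 1 of 18 then passed, Cldn2, as negative (mean -0.42 over 2, 4 and 6 h, limma adjusted p = 0.0224). Of the other endothelial features 5 of 30 passed as positive, those of Emcn (0.44, limma adjusted p = 0.0287), Igfbp7 (0.35), Sox18 (0.29), Ocln (0.32) and Esam (0.25), the last of these at 0.043, and Plvap passed as negative (-0.35, limma adjusted p = 0.0317). Each had the same sign on 3 of 3 later arrays, but the call on those arrays largely fixes this, so nothing is read from it. In the other lists Vtn, Fgfr3 and the cilium gene Rsph1 passed as positive in that fit. Rxra, Tjp1, the matrix gene Fmod and 1 feature of Fgfr1 (-0.28, -0.26 and -0.19 at 2, 4 and 6 h) passed as negative. The Tjp1 feature lay in the stretch of feature numbers that held many of the low group. Of all these genes, Plvap alone had the same sign at 1 h. The 1 h values of Emcn, Ocln and this Fgfr1 feature (-0.02, -0.04 and 0.04) were smaller than the Gapdh SD of 0.09. The share with the same sign at 1 h over all features called was not counted, so nothing is read from these signs. The calls without the 1 h array rest on 3 arrays of different times. The mean over the 4 times was also fitted with array weights, where 14% of all features passed as positive and 13.3% as negative. In that fit 0 of the 18 other plexus features passed as positive and 5 as negative. Of the 30 other endothelial features 9 passed as positive and 2 as negative.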

How the data were processed

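The 4 arrays are those of dentate gyrus RNA, saline in Cy3 and MK-801 in Cy5 per the labels' protocols. The authors deposited 1 log ratio per feature and array, read here as log2; scanner, background correction and normalisation are not given in the sources used here. No intensities were used, so signal over background and saturation were not examined, and the number of arrays limits the precision.

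Exact 0 was taken as no value, which left 12131, 12227, 10185 and 10512 features at 1, 2, 4 and 6 h, and the median of each array was subtracted (0.0074, 0.0093, 0.017 and 0.0052 as deposited). Genes were named through the platform annotation: 13738 features had 1 symbol, 52 several and 2491 none. The 4 genes' symbols matched RefSeq (GRCm38.p6) by Entrez identifier.

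Limma 3.58.1 (R 4.3.3) fitted the mean and the slope on log2 hours, two-sided with Benjamini-Hochberg adjustment, over 8759 features with 1 symbol or none. The fits were tested on simulated data. Features were named by rule: all features of the 4 genes, the 3 most alike in root mean square difference, the 2 highest and 2 lowest genes of each list by median over the times among features with all 4 values, and any gene of the VEGF, klotho, transport and tight junction lists. Kcne2, Igf2, Aqp1, Folr1, Col8a1, Slc4a2, Fli1, Palmd, Sox18, Esam, Rgs5, Slc4a1, the neighbours and the genes of the low group were added after their values were seen, as was the use of Gapdh features with all 4 values for the spread. The members and lists were chosen with earlier results of these data known.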

Additional observations from a re-analysis of the deposited data

Results flagged for a closer look

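The ratio of Kl feature 13730 had opposite signs at 1 h and on the later arrays, 0.20 against -2.64, -3.03 and -3.18, a step of -3.15 from 1 h to the mean of 2, 4 and 6 h. That of Flt1 did likewise, 0.13 against -0.25, -0.40 and -0.38, a step of -0.47. Of the 8777 features with values on all 4 arrays, 15% had these signs. A lower step than that of Kl feature 13730 was found in 0.0228% of them, and a lower step than that of Flt1 in 9.79%. Each value of both features was past the SD of the 15 Gapdh features with values on all 4 arrays. The means of those Gapdh features, -0.26, 0.47, 0.39 and 0.35 at 1, 2, 4 and 6 h, were past that SD and changed sign after 1 h as well. Over all Gapdh features with a value that SD was 0.18 at 1 h and 1.07 at 4 h, and Flt1 was not past it at those times. With 1 array per time these differences were not tested.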

How the results depend on the processing

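For the mean over the 4 times limma called 0 features, and 1049 without the 1 h array, 0 without the 2, 4 or 6 h array, 2393 with array weights and 19, all negative, where values on 3 of the 4 arrays sufficed. For the slope 0 were called under every alternative run. Features above 1 numbered 208, 0, 11 and 12 at 1, 2, 4 and 6 h, and those below -1 numbered 50, 117, 204 and 151. With equal spread they became 48, 24 and 31 above 1 at 1, 4 and 6 h, and 7 below -1 at 1 h. With values on all 4 arrays they became 28 above 1 at 1 h and 6 at 6 h, and 31, 61, 53 and 50 below -1. Read as natural logarithms they became 552, 33, 113 and 72 above 1, and 295, 235, 316 and 252 below -1. The causes were not tested. Of the 22 values of Ttr, Kl, Cldn5 and Flt1, 1 changed sign without centring (Cldn5 at 4 h) and 0 with equal spread, where 8 moved by more than the Gapdh SD. Read as natural logarithms 15 of them moved by more. Of 44 list medians 41 moved by less than the Gapdh SD when features were averaged by gene. The Gapdh SD in these counts is that of the 15 features with values on all 4 arrays, 0.03 at 4 h. Over all Gapdh features with a value it was 1.07 at 4 h, and the counts were not made with that SD. No paired analysis was possible because each time has 1 array.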

Other observations

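Features of Gapdh without values on all 4 arrays were less uniform than the 15 with them: at 4 h all 20 features with a value had an SD of 1.07 and a lowest ratio of -2.59, while the 15 ran from 0.33 to 0.47.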
